A study of Mus musculus with 11 samples.

Results

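The genes described here are the mouse hair keratins, the inner root sheath keratins and the keratin-associated proteins (KAPs), the structural proteins of the hair and of the sheath that moulds it. They were chosen by symbol: every gene whose symbol starts with Krtap, and Krt25 to Krt28, Krt31 to Krt36, Krt71 to Krt75 and Krt81 to Krt86, each measured by its brightest probe set annotated to that gene alone. The arrays measured 58 such genes among 18194, and 47 of the 58 were bright enough to be tested, among 13710 genes tested in all. By role they were 7 inner root sheath keratins (7 tested), the companion layer keratin Krt75 (tested), 7 type I hair keratins (4 tested), 5 type II hair keratins (3 tested) and 38 KAPs (32 tested). The 11 members that were not tested were Krt33a, Krt33b, Krt35, Krt82, Krt86, Krtap5-2, Krtap5-3, Krtap5-4, Krtap11-1, Krtap13 and Krtap19-2.

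Skin was taken from 11 mice, 1 Affymetrix array per mouse. The groups were 4 mice at 24 h after 1 mg/kg of ABBV-075 (replicates 1, 2, 3 and 4), 4 mice at 6 h after the same dose (replicates 1, 2, 3 and 5) and 3 mice given vehicle (replicates 1, 3 and 4). ABBV-075 (mivebresib) is an inhibitor of the BET bromodomain proteins, which bind acetylated histones at enhancers and promoters. The labels give no strain, sex, age, skin site or hair cycle stage, and no collection time for vehicle skin, so that time after dosing and treatment cannot be told apart in the comparisons with vehicle. Values are log2(intensity + 16) after quantile normalization, on which a gene without signal lies at 4.00. Differences on this scale understate changes of dim genes.

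A hair is built from keratin filaments embedded in a matrix of KAPs. Type I (acidic) and type II (basic) keratins pair into filaments. The hair keratins and KAPs are made in the cortex and cuticle of the shaft, and Krt25 to Krt28 and Krt71 to Krt74 in the inner root sheath around it. Krt75 belongs to the companion layer between the inner and outer root sheaths. Hair follicles pass through growth (anagen), regression (catagen) and rest (telogen), and shaft and inner root sheath proteins are made in growing follicles. KAPs are grouped by composition into high-sulfur, ultra-high-sulfur and high-glycine-tyrosine kinds. The genes lie in clusters, and of the 58 members 21 were on chromosome 11, 20 on chromosome 16, 9 on chromosome 15, 5 on chromosome 7, 2 on chromosome 10 and 1 on chromosome 1. Many KAP genes are near-identical copies, so that a probe set may also take up RNA of a neighbouring family member.

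Promoters of 4 members are printed because the genes showed the array-to-array pattern described next and lie in the gene clusters of chromosomes 11 and 16. They are the RefSeq sequences on GRCm38.p6 from 250 bases before to 50 bases after the start of the gene, each read on the minus strand, at chr11:99322902-99323201 (Krt25), chr11:100041505-100041804 (Krt34), chr16:89487903-89488202 (Krtap8-1) and chr16:89010710-89011009 (Krtap22-2). Capitals mark TATAAA, the core of the TATA box, and CTTTGAA, the core bound by Lef/Tcf factors.
Krt25: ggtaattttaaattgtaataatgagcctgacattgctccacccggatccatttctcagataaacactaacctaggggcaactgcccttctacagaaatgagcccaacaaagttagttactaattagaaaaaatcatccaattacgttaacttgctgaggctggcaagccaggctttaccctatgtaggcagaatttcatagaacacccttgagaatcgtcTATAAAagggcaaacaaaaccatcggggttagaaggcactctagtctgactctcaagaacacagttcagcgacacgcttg
Krt34: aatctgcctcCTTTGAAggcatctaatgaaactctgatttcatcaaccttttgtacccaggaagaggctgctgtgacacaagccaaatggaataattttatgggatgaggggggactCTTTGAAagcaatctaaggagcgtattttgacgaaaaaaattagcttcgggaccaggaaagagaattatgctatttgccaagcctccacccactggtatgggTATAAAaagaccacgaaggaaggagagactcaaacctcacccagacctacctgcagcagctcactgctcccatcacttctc
Krtap8-1: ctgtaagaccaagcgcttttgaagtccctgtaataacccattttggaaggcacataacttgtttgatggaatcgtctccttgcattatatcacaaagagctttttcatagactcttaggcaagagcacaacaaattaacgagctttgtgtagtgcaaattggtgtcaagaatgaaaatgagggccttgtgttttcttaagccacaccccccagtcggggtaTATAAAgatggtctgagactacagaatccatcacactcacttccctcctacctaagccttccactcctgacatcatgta
Krtap22-2: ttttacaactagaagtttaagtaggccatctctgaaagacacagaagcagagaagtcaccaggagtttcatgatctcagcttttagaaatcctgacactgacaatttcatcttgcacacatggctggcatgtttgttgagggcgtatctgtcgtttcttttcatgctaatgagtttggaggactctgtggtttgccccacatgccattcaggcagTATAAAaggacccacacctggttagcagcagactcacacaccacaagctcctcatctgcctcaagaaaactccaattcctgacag

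In these 4 promoters TATAAA began 30, 31, 29 and 35 bases before the start of Krt25, Krt34, Krtap8-1 and Krtap22-2, and Krt34 also held CTTTGAA 240 and 133 bases before the start. A promoter sequence was given for 51 of the 58 members. TATAAA, on either strand and anywhere in the 300 bases, was found in 41 of the 51 (80.4%), against 13.6% of the 32851 promoters in the table. On the gene strand and starting 25 to 35 bases before the start, a window chosen after the sequences were seen, it was found in 26 of the 51 (51.0%), against 1.75% of all promoters. CTTTGAA, on either strand, was found in 11 of the 51 (21.6%), against 5.14% of all promoters. Copies within a gene family can resemble each other in their promoters too, so the 51 are not independent of each other.

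The hair genes varied widely between mice of 1 group, and the same mouse of each group was high for most of them. On 24 h replicate 2 the median level over the 58 members was 8.85, while the other 24 h arrays (replicates 1, 3 and 4) had medians of 4.54, 4.95 and 5.12. On 6 h replicate 5 it was 6.33, while replicates 1, 2 and 3 had 4.60, 4.94 and 4.96. On vehicle replicate 4 it was 8.52, while replicates 1 and 3 had 5.20 and 5.22. So 1 array of each group stood above the others, and the high array at 6 h lay below the other 2 high arrays.

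The share of an array's summed intensity that fell on the 58 members was 0.497% on 24 h replicate 2 and 0.0077% to 0.0147% on the other 24 h arrays. It was 0.0693% on 6 h replicate 5 and 0.0085% to 0.0136% on the other 6 h arrays. It was 0.608% on vehicle replicate 4, against 0.0142% and 0.0136% on vehicle replicates 1 and 3. In skin as a whole, fewer cells making these proteins and less RNA per cell cannot be told apart.

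**Figure D1:**
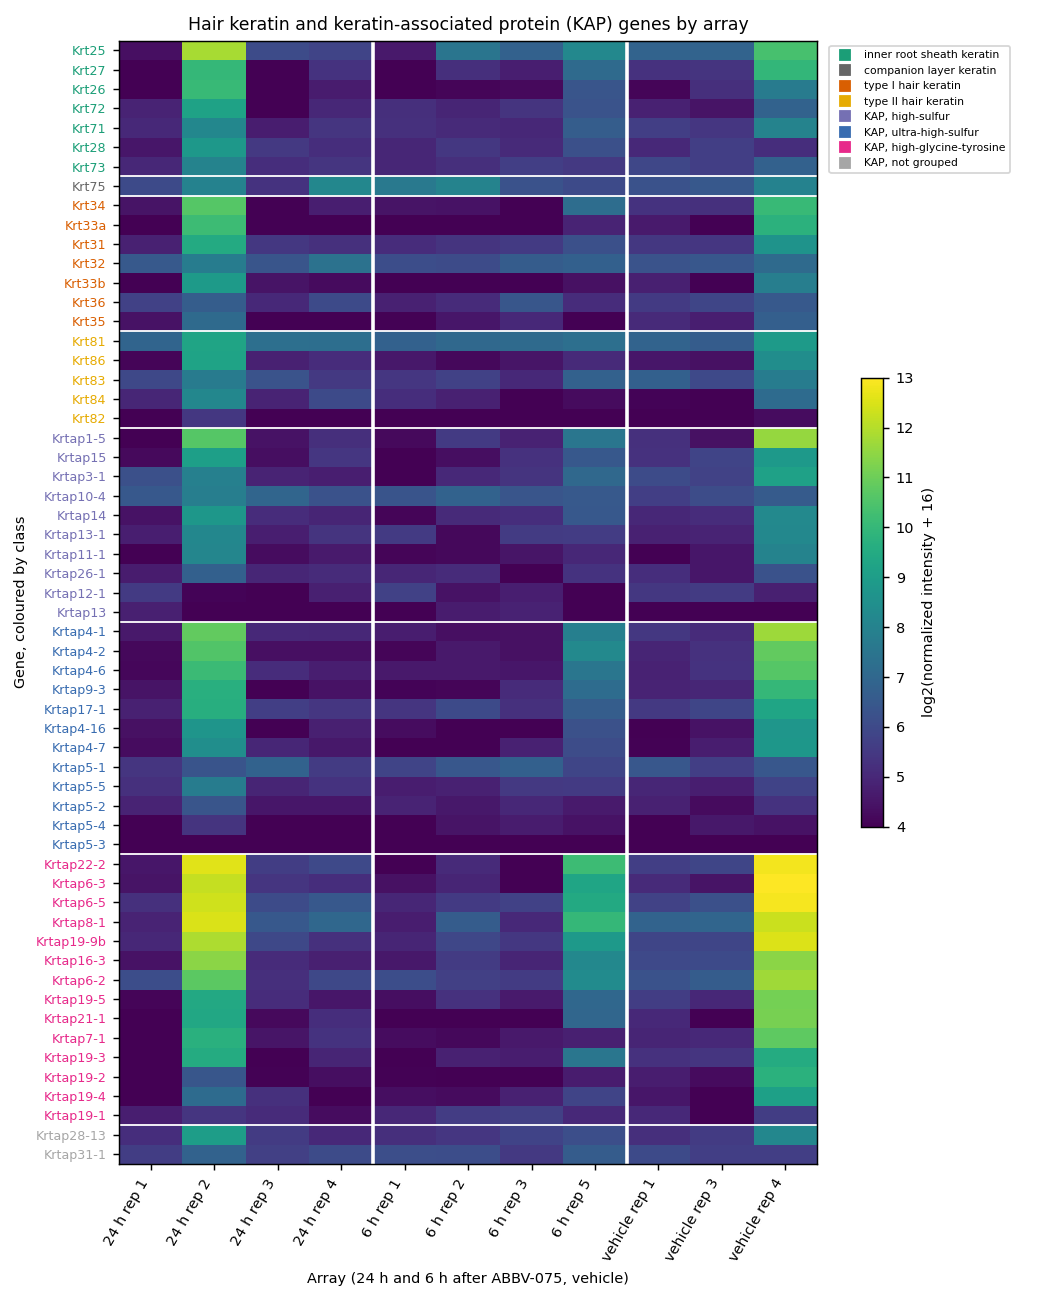
Level of the 58 hair keratin and KAP genes (rows, by class, brightest first within each class) on the 11 arrays (columns, 24 h and 6 h after ABBV-075 and vehicle), as log2(normalized intensity + 16). 24 h replicate 2, 6 h replicate 5 and vehicle replicate 4 stand out as bright columns, with array medians of 8.85, 6.33 and 8.52.

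Counted gene by gene, 24 h replicate 2 was the highest 24 h array for 53 of the 58 members, 6 h replicate 5 the highest 6 h array for 44, and vehicle replicate 4 the highest vehicle array for 51. Over all genes tested these arrays were the highest of their group for 26.6%, 36.6% and 30.9%. All 3 held together, the form referred to from here on, for 42 of the 58 members, and for 37 of the 47 tested, against 3.61% of all genes tested. In 26 of the 47 tested each of the 3 arrays lay more than 1 log2 unit above the next array of its group, against 0.263% of all genes tested (36 of 13710, members included). Over all 58 members measured, these gaps held in the same number, 26 (44.8%). A gene was tested if it was bright on at least 3 arrays, so these 3 arrays alone could admit a member. The share among tested members is raised by this. The 3 arrays were also picked from the members' own levels, so these counts describe the pattern and do not test it.

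The RNA of these arrays was not alike. For beta-actin the signal ratio of 5' to 3' probe sets, which is lower in shortened RNA, was 0.198 on 24 h replicate 2 and 0.423 to 0.529 on the other 24 h arrays. It was 0.0725 on 6 h replicate 5, the lowest of all, and 0.284 to 0.425 on the other 6 h arrays, and the Gapdh ratio there was 0.104, against 0.684 to 0.711. The actin ratio was 0.565 on vehicle replicate 4, between the 0.593 and 0.484 of vehicle replicates 3 and 1. The Gapdh ratio on vehicle replicate 4 was 0.698, below the 0.888 and 0.911 of vehicle replicates 1 and 3. On 24 h replicate 2 the Gapdh ratio was 0.804, below the 0.945 to 1.08 of the other 24 h arrays. The part of RNA length in the level of the hair genes was not tested.

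Among the inner root sheath keratins, Krt25, a type I keratin of all its layers, had levels of 11.82 on 24 h replicate 2 and 4.38, 6.06 and 5.83 on 24 h replicates 1, 3 and 4. The 6 h arrays gave 8.19 on replicate 5 and 4.63, 7.50 and 6.79 on replicates 1, 2 and 3. In vehicle it had 10.37 on replicate 4 and 6.85 and 6.87 on replicates 1 and 3. The 3 groups overlapped, and the range over arrays amounted to 174-fold on the intensity + 16 scale.

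Krt27, another type I keratin of the sheath, had 10.01 on 24 h replicate 2 with 4.00, 4.00 and 5.33 on replicates 1, 3 and 4. At 6 h it had 7.12 on replicate 5 with 4.00, 5.21 and 4.77 on replicates 1, 2 and 3, and in vehicle 9.94 on replicate 4 with 5.29 and 5.34 on replicates 1 and 3. Its signal was at the floor on 3 of the 11 arrays, so the range of 64.3-fold is set by the added 16 at its lower end. Krt26, a type I keratin of the sheath cuticle, had 10.05 on 24 h replicate 2 and at most 4.70 on the other 24 h arrays, 6.36 on 6 h replicate 5 and at most 4.23 on the other 6 h arrays, and 7.73 on vehicle replicate 4 with 4.12 and 5.20 on vehicle replicates 1 and 3. Krt72, a type II keratin of the sheath cuticle, had 9.17 on 24 h replicate 2, 6.31 on 6 h replicate 5 and 6.82 on vehicle replicate 4, with 4.00 to 5.37 on the other 8 arrays.

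Krt71, a type II sheath keratin whose mutations give curly coats in mice, had 8.17 on 24 h replicate 2, 6.66 on 6 h replicate 5 and 8.02 on vehicle replicate 4, with 4.73 to 5.65 on the others. Krt28 was an exception: it had 8.79 on 24 h replicate 2 and 6.21 on 6 h replicate 5, but 5.18 on vehicle replicate 4, between the 5.03 and 5.65 of vehicle replicates 1 and 3. Krt73 was the highest of its group on 24 h replicate 2 (8.02) and on vehicle replicate 4 (6.79), but not on 6 h replicate 5 (5.51, with 5.65 on 6 h replicate 3).

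Among the type I hair keratins, Krt34, a keratin of the shaft cortex, had 10.63 on 24 h replicate 2 and 4.49, 4.00 and 4.76 on 24 h replicates 1, 3 and 4. Its 6 h levels were 7.22 on replicate 5 and 4.49, 4.43 and 4.00 on replicates 1, 2 and 3. In vehicle it had 10.05 on replicate 4 and 5.33 and 5.25 on replicates 1 and 3. Apart from the high array of each group, all levels lay at or below 5.33, near the floor.

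Krt31, also of the cortex, had 9.49, 6.20 and 8.62 on 24 h replicate 2, 6 h replicate 5 and vehicle replicate 4, and 4.82 to 5.52 on the other arrays. Krt33a, a cortex keratin that was not tested, had 10.18, 4.91 and 9.78 on the same arrays and was at the floor on 7 of the other 8. Krt32, a keratin of the shaft cuticle, moved least of the 4 type I hair keratins named: it had 7.80 on 24 h replicate 2 with 6.52, 6.39 and 7.38 on 24 h replicates 1, 3 and 4, 6.78 on 6 h replicate 5 with 6.12, 6.05 and 6.62 on 6 h replicates 1, 2 and 3, and 7.12 on vehicle replicate 4 with 6.31 and 6.45 on vehicle replicates 1 and 3.

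Among the type II hair keratins, Krt81 had 9.26 on 24 h replicate 2 with 6.89, 7.30 and 7.25 on 24 h replicates 1, 3 and 4. At 6 h it had 7.29 on replicate 5 with 6.79, 7.03 and 7.12 on replicates 1, 2 and 3, and in vehicle 8.90 on replicate 4 with 6.85 and 6.63 on replicates 1 and 3. At 6 h the high array thus stood little above the next, unlike at 24 h and in vehicle. Krt86, a cortex keratin that was not tested, had 9.20, 5.08 and 8.43 on the 3 high arrays and 4.11 to 5.13 on the others. Krt83, of the cortex, had 7.74, 6.79 and 7.77 on the 3 high arrays and 5.05 to 6.75 on the others. Krt84, known in humans from the papillae of the tongue, had 8.17, 4.26 and 7.14 on these arrays, and at 6 h its highest array was replicate 1 (5.18).

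The companion layer keratin Krt75 did not follow the hair keratins. It had 7.99 on 24 h replicate 2 with 6.01, 5.32 and 8.18 on 24 h replicates 1, 3 and 4. At 6 h it had 6.01 on replicate 5, the lowest of the group, with 7.65, 8.04 and 6.27 on replicates 1, 2 and 3, and in vehicle 7.997 on replicate 4 with 6.28 and 6.49 on replicates 1 and 3. Krt6a, a keratin of the companion layer and outer root sheath set beside it after the values were seen, had 10.41 on 24 h replicate 2 with 8.03, 7.95 and 10.79 on 24 h replicates 1, 3 and 4. At 6 h Krt6a had 8.06 on replicate 5 with 11.09, 10.33 and 9.69 on replicates 1, 2 and 3, and in vehicle 10.29 on replicate 4 with 8.55 and 8.96 on replicates 1 and 3. For both genes 24 h replicates 2 and 4 were the higher 24 h arrays, 6 h replicates 1 and 2 the higher 6 h arrays, and vehicle replicate 4 the highest vehicle array.

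**Figure D2:**
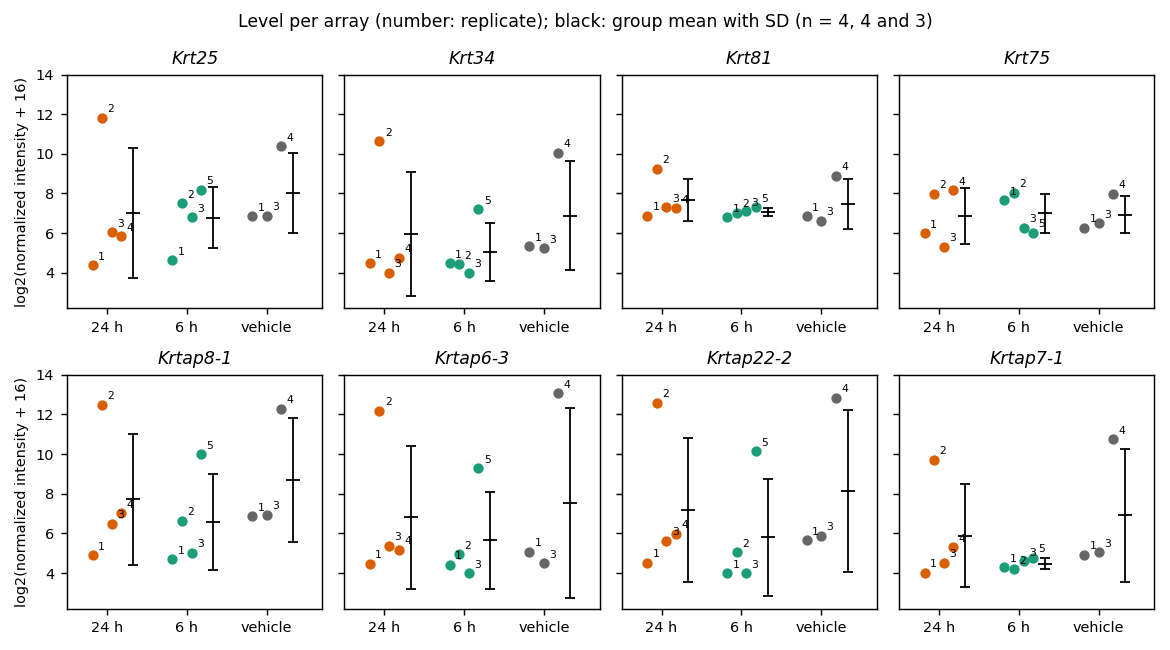
Level of 8 members on each array as log2(normalized intensity + 16), by group (24 h, 6 h, vehicle). Points are mice with their replicate number, and the black mark and bar give the group mean and SD (n = 4, 4 and 3). Each of Krt34, Krtap8-1, Krtap6-3 and Krtap22-2 has 1 high mouse per group, and Krt75 does not. Krt25 has 1 at 24 h and 1 in vehicle, but at 6 h its replicate 5 (8.19) lies near replicate 2 (7.50).

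The KAPs had the widest range. Krtap6-3, of a high-glycine-tyrosine family made in the cortex, had 12.20 on 24 h replicate 2 and 4.47, 5.38 and 5.18 on 24 h replicates 1, 3 and 4. The 6 h levels were 9.29 on replicate 5 and 4.42, 4.94 and 4.00 on replicates 1, 2 and 3. In vehicle it had 13.07 on replicate 4 and 5.08 and 4.49 on replicates 1 and 3. This was a range of 538-fold on the intensity + 16 scale, and its pooled within-group SD of 3.59 was the highest of the 13710 genes tested. A dimmer probe set of Krtap6-3 gave 7.17 on 24 h replicate 2, 4.25 on 6 h replicate 5 and 6.32 on vehicle replicate 4, with 4.00 to 4.62 on the other arrays, so that the probe sets differed on 6 h replicate 5.

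Krtap22-2, of another high-glycine-tyrosine family, had 12.59 on 24 h replicate 2 with 4.53, 5.63 and 5.99 on 24 h replicates 1, 3 and 4. On the 6 h arrays it had 10.16 on replicate 5 with 4.00, 5.07 and 4.00 on replicates 1, 2 and 3, and in vehicle 12.85 on replicate 4 with 5.66 and 5.89 on replicates 1 and 3. Krtap8-1, of the same kind, had 12.48 on 24 h replicate 2 with 4.91, 6.49 and 7.01 on 24 h replicates 1, 3 and 4, 9.996 on 6 h replicate 5 with 4.71, 6.63 and 5.02 on 6 h replicates 1, 2 and 3, and 12.29 on vehicle replicate 4 with 6.87 and 6.94 on vehicle replicates 1 and 3. Krtap6-5 had 12.36, 9.48 and 12.89 on the 3 high arrays and 4.96 to 6.47 on the others. In all 4 of these KAPs each group had 1 high mouse, and the one at 6 h lay below the other 2.

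Most high-sulfur KAPs had the form as well, but not Krtap10-4, Krtap12-1 and Krtap13. Krtap3-1, a high-sulfur KAP of a cortex family, had 7.94, 7.03 and 9.15 on 24 h replicate 2, 6 h replicate 5 and vehicle replicate 4, and 4.00 to 6.19 on the others. Krtap7-1, a high-glycine-tyrosine KAP, had 9.71 on 24 h replicate 2 and 10.77 on vehicle replicate 4 but only 4.78 on 6 h replicate 5, just above the 4.60 of 6 h replicate 3. KAPs without the form varied less: Krtap5-1 (5.40 to 6.84 over all arrays), Krtap10-4 (5.68 to 7.85), Krtap31-1 (5.51 to 6.83), Krtap12-1 (4.00 to 5.75), Krtap19-1 (4.00 to 5.72) and the untested Krtap5-2, Krtap5-3, Krtap5-4 and Krtap13. Krtap12-1 and Krtap19-1 depended on the probe set, and the other probe set of each had the form. That of Krtap12-1 gave 6.48 on 24 h replicate 2, 5.10 on 6 h replicate 5 and 4.93 on vehicle replicate 4, with 4.21 to 4.77 on the other arrays. That of Krtap19-1 gave 6.50, 5.32 and 8.82 on the same 3 arrays, with 4.00 to 4.64 on the others.

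The 3 high arrays had different mixes of these genes, each being 1 mouse. On 24 h replicate 2 all 7 inner root sheath keratins were higher than on vehicle replicate 4, by a median of 1.45 (0.063 to 3.62, the most for Krt28). All 7 type I hair keratins were higher too, by a median of 0.57, and 4 of 5 type II hair keratins, by a median of 0.78. Of the 38 KAPs 14 were higher, 22 lower and 2 equal, with a median difference of -0.17.

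The KAPs divided by kind, a grouping by family number made after the values were seen. Of 14 high-glycine-tyrosine KAPs 3 were higher and 11 lower on 24 h replicate 2 than on vehicle replicate 4, with a median of -0.75 and the lowest value, -3.34, for Krtap19-2. The 10 high-sulfur KAPs had a median of 0.044 and the 12 ultra-high-sulfur KAPs one of -0.052. The sheath keratins and the high-glycine-tyrosine KAPs of these mice thus differed in opposite directions, with no replicate to set the difference against.

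On 6 h replicate 5 the levels were lower than on vehicle replicate 4 for 6 of 7 inner root sheath keratins (median -1.36), 7 of 7 type I hair keratins (-2.74), 5 of 5 type II hair keratins (-1.60) and 35 of 38 KAPs (-2.61). The exceptions were Krt28, at 1.03, Krtap31-1, at 0.94, and 2 KAPs at the floor on both arrays. Against 6 h replicate 5, 24 h replicate 2 was higher by medians of 2.86, 3.29, 1.96 and 2.40 for the same classes.

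**Figure D3:**
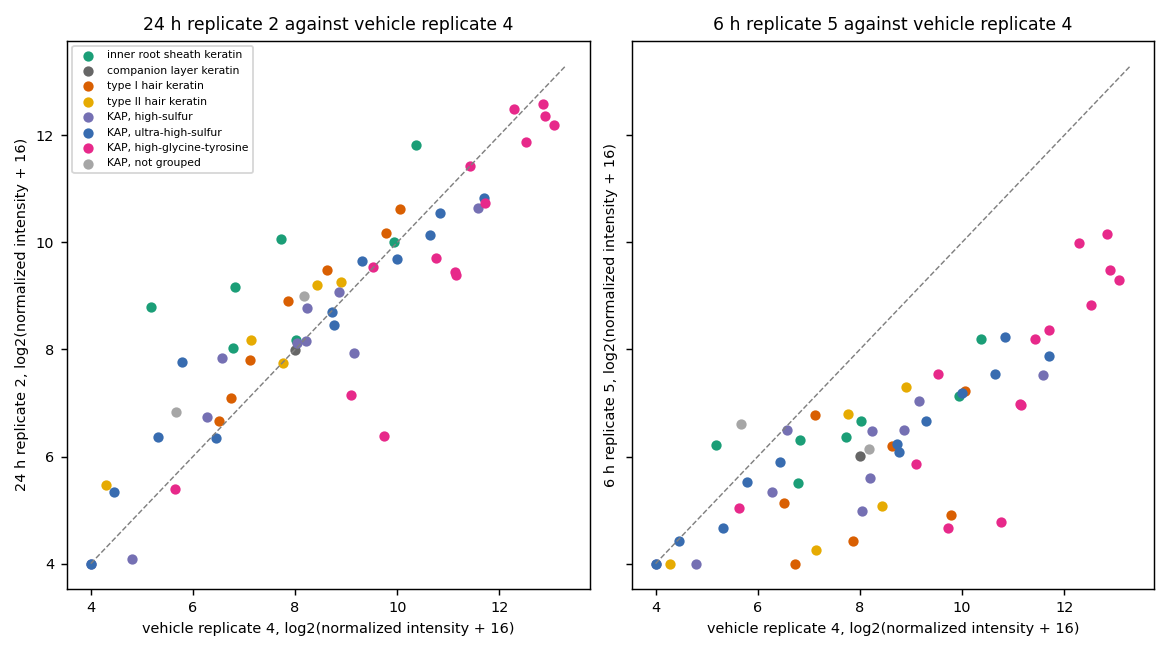
Level of each of the 58 members on 24 h replicate 2 (left) and 6 h replicate 5 (right) against vehicle replicate 4, all as log2(normalized intensity + 16), coloured by class, with the line of equal levels dashed. On the left the 7 inner root sheath keratins lie above the line and 11 of 14 high-glycine-tyrosine KAPs below it, and on the right nearly all members lie below it.

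Other genes of the hair shaft and its sheath varied with the members in part. Of 20 such genes listed, 14 were measured and 12 tested, and 5 of the 12 (Tchh, Tchhl1, Psors1c2, Gsdma and Crym) were the highest of each group on the same 3 arrays. Tchh, which encodes trichohyalin, the protein that hardens the inner root sheath and medulla, had 12.75 on 24 h replicate 2 with 6.83, 7.53 and 7.67 on 24 h replicates 1, 3 and 4. At 6 h it had 11.24 on replicate 5 with 6.59, 8.26 and 7.86 on replicates 1, 2 and 3, and in vehicle 12.09 on replicate 4 with 7.69 and 8.23 on replicates 1 and 3. S100a3, a calcium-binding protein of the hair cuticle, had 9.73 on 24 h replicate 2 and 8.56 on vehicle replicate 4 but 5.37 on 6 h replicate 5, within the 4.54 to 5.54 of the other 6 h arrays.

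Regulators of the hair matrix, which gives rise to the shaft and sheath, showed less of it: 2 of 14 (Bmpr1a and Prdm1) had the form, and none with gaps over 1 log2 unit. Their mean level was still the highest of its group on 24 h replicate 2 (7.81, next 7.66) and vehicle replicate 4 (7.58, next 7.09). At 6 h their mean was 7.08 on replicate 5, below the 7.69 and 7.26 of 6 h replicates 1 and 2. Hoxc13, a homeobox factor that drives hair keratin genes, had 8.72 on 24 h replicate 2 and 7.22 on vehicle replicate 4, each the highest of its group, but 6.38 on 6 h replicate 5, below the 6.86 of 6 h replicate 1. None of the genes listed for follicle stem cells and outer root sheath (10 tested), proliferation (9), interfollicular epidermis (7), fibroblasts (6), adipocytes (5), skeletal muscle (6), macrophages (6), endothelium (6) or red blood cells (1) had the form, and 1 of 6 melanocyte genes did: Mitf, at 9.74, 10.08 and 9.60 on 24 h replicate 2, 6 h replicate 5 and vehicle replicate 4. By limma 0 genes of any of these lists were called in any comparison. The mean of the proliferation genes was highest on 24 h replicate 4 (7.64), 6 h replicate 1 (7.18) and vehicle replicate 1 (8.03). The tested epidermal genes, which mark the tissue as skin, had means of 11.04 to 12.04 on every array. Krt2, listed with them but too dim to be tested, lay at 4.00 to 5.54.

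**Figure D4:**
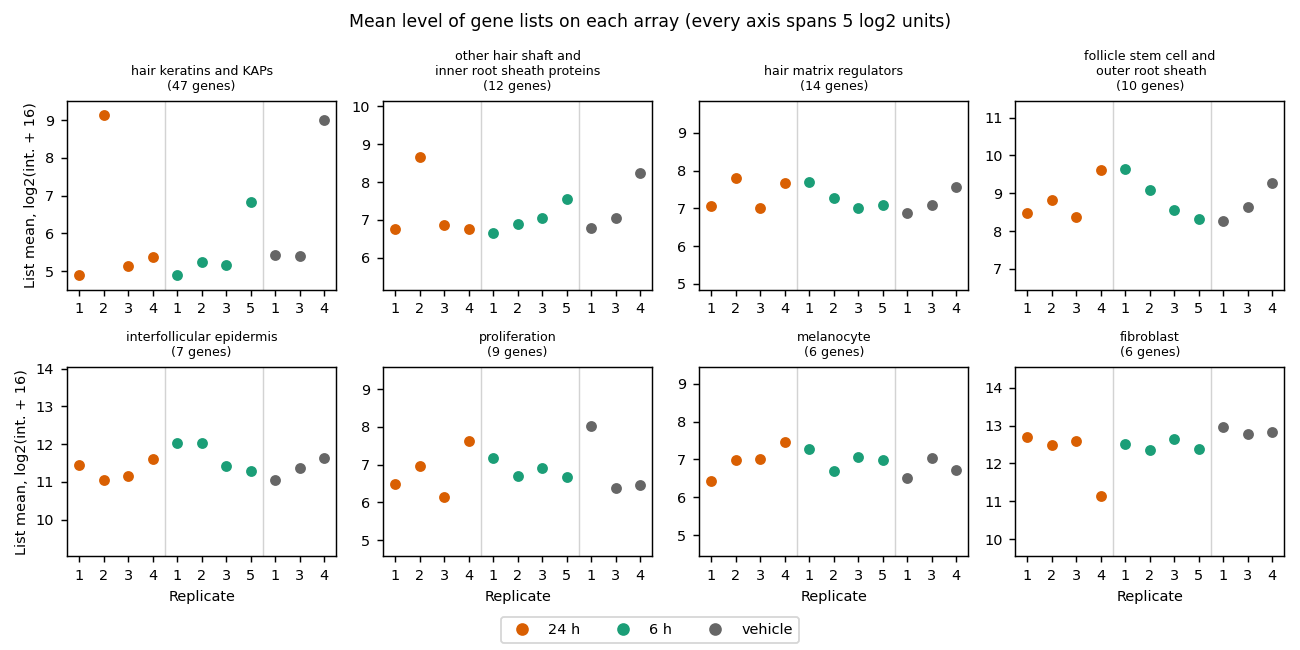
Mean level of gene lists on each array as log2(normalized intensity + 16), with arrays ordered 24 h, 6 h and vehicle and numbered by replicate. The list mean of the tested hair keratins and KAPs is high on 24 h replicate 2, 6 h replicate 5 and vehicle replicate 4, which the proliferation, epidermis and fibroblast lists do not share.

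Over the other 13663 genes tested, 10 had the form with gaps over 1 log2 unit on all 3 arrays (0.0732%): Gm10229, Gm10228, Gm9789, Gm11563, Tchh, Gm11559, Prr9, Gprc5d, Crym and Calhm4, a list found by the search itself. Gm10228 is also annotated to a probe set shared with Krtap6-1, and Gm11559 to one shared with Krtap9-1. The choice of members by symbol may thus have left KAP-like genes among these 10. Gm10229 had 12.68, 10.20 and 12.52 on 24 h replicate 2, 6 h replicate 5 and vehicle replicate 4, and 4.23 to 6.16 on the other arrays. Prr9 had 12.85, 10.22 and 12.32, and 6.78 to 9.09 on the others. Gprc5d, an orphan receptor known from the hair follicle, had 7.37, 6.16 and 6.97, and at most 4.75 on the others.

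With this spread, no comparison of the groups reached the threshold for any member. By limma with Benjamini-Hochberg adjustment over all 13710 genes, 0 of the 47 tested members were called at 24 h against vehicle, at 6 h against vehicle or at 24 h against 6 h, where 0% of all genes were called in each. At an unadjusted p under 0.05 the members again numbered 0 in each comparison, against 7.63%, 16.1% and 9.27% of all genes. The median pooled within-group SD was 1.75 over the 47 members (0.45 for Krtap31-1 to 3.59 for Krtap6-3) and 0.34 over all genes tested, and 39 of the 47 lay over the 95th percentile of all genes. The filter could admit a member through the high arrays alone, which can raise the SDs of the tested members. By class the median SD was 1.59 for inner root sheath keratins, 1.17 for Krt75, 1.15 for type I hair keratins, 0.92 for type II hair keratins and 2.11 for KAPs. The standard error of a difference from vehicle ran from 0.31 to 2.32 over the members, with a median of 1.14, against 0.26 over all genes, so that differences of several-fold in most of them were not detectable with these arrays.

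At 24 h the fitted difference from vehicle was above 0 in 10 members and below 0 in 37, with a median of -0.53 (-1.44 to 0.95), against -0.020 over all genes, of which 47.6% lay above and 52.4% below 0. By class the median was -0.23 for inner root sheath keratins, -0.17 for type I hair keratins, 0.21 for type II hair keratins and -0.84 for KAPs. For Krtap6-3 the group mean was 6.81 ± 3.62 at 24 h (SD, n = 4) and 7.55 ± 4.79 in vehicle (SD, n = 3), a difference of -0.74 ± 2.32 (SE). The median turned on single arrays: it was -1.45 without 24 h replicate 2, 0.73 without vehicle replicate 4, -1.17 and -0.999 without vehicle replicates 1 and 3, and -0.037 and -0.26 without 24 h replicates 1 and 3. It was -0.29 with a pseudocount of 64, -0.93 with a filter at the 60th percentile of brightness, -0.89 with the replicate number as a block and -1.05 with the actin ratio as a covariate, and -0.84 on the intensities as deposited, where that of all genes was -0.62.

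The member with the smallest p at 24 h was Krtap10-4, with 7.85, 6.46, 6.94 and 6.25 on 24 h replicates 2, 1, 3 and 4, against 5.68, 6.08 and 6.57 on vehicle replicates 1, 3 and 4. It differed by 0.77 ± 0.35 (SE), and limma's adjusted p was 0.647. The next were Krtap12-1 at -0.67 ± 0.45, Krt32 at 0.40 ± 0.36 and Krt84 at 0.95 ± 0.87, with limma's adjusted p between 0.716 and 0.792. The sign for Krtap12-1 turned with the probe set, since its other one averaged 5.01 at 24 h and 4.73 in vehicle, a difference of 0.28. No member separated the groups, against 11.1% of all genes whose 24 h and vehicle arrays did not overlap.

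At 6 h the fitted difference from vehicle was above 0 in 7 members and below 0 in 40, with a median of -1.08 (-2.44 to 0.45), against 0.0037 over all genes, of which 50.4% lay above and 49.6% below 0. The highest value, 0.45 for Krtap19-1, turned with the probe set, since the other one gave -1.46. For Krtap5-1 the probe sets gave 0.047 and -0.23. By class the median was -0.87 for inner root sheath keratins, -0.78 for type I hair keratins, -0.51 for type II hair keratins and -1.51 for KAPs. Without vehicle replicate 4 the median was 0.13. It was -1.79 and -1.69 without vehicle replicates 1 and 3, and within 1.5 times of the full value without any 1 of the 6 h arrays. With a pseudocount of 1 it was -1.65, with the replicate block -1.78 and with the actin covariate -2.61. Some marker lists of other cells lay lower as well. Median differences were -0.98 for macrophage genes (6 of 6 below 0), -0.98 for adipocyte genes (5 of 5), -0.77 for endothelial genes (6 of 6) and -0.27 for fibroblast genes (6 of 6). The skeletal muscle median was -0.31 (5 of 6 below 0). Other lists lay higher, with medians of 0.30 for interfollicular epidermis (6 of 7 above 0), 0.25 for melanocyte genes (5 of 6) and 0.16 for follicle stem cells and outer root sheath (6 of 10). At 24 h against vehicle the macrophage, adipocyte, endothelial and fibroblast medians were -0.78, -0.66, -0.66 and -0.59. There 24 h replicate 4 stood apart, with a macrophage mean level of 8.03 and a fibroblast mean level of 11.13, against 10.10 to 10.45 and 12.49 to 12.71 on the other 24 h arrays. The part of these other cells in the values of the hair genes was not tested.

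The smallest p values at 6 h were those of Krt83, Krtap3-1, Krtap7-1 and Krt36. Krt83 had 6.79, 5.43, 5.73 and 5.05 on 6 h replicates 5, 1, 2 and 3, against 6.75, 5.98 and 7.77 on vehicle replicates 1, 3 and 4, and differed by -1.08 ± 0.58 (SE; limma's adjusted p 0.387). Krt83 was called only on the intensities as deposited, without normalization between arrays (-1.66, limma's adjusted p 0.0454), where the trimmed mean of an array ran from 82.8 to 244 at 6 h and from 205 to 244 in vehicle. Krtap3-1 differed by -1.64 ± 0.98, Krtap7-1 by -2.44 ± 1.49 and Krt36 by -0.61 ± 0.44, with limma's adjusted p between 0.436 and 0.522. Krt73 and Krtap7-1 lay lower on every 6 h array than on any vehicle array, which makes 2 of the 47 members without overlap, against 18.5% of all genes without overlap in either direction and 8.77% that were lower.

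At 24 h against 6 h the fitted difference was above 0 in 42 members and below 0 in 5 (Krt75, Krtap12-1, Krtap19-1, Krtap31-1 and Krtap5-1), with a median of 0.58 (-0.46 to 1.46), against -0.019 over all genes, of which 47.4% lay above and 52.6% below 0. Without 24 h replicate 2 the median was -0.42, and without 6 h replicate 5 it was 1.05. It was 1.06, 0.94 and 0.90 without 24 h replicates 1, 3 and 4, 0.87 with the replicate block, 1.46 with the actin covariate and 0.33 with array weights. The smallest p values were those of Krt32 at 0.63 ± 0.33, Krt84 at 1.46 ± 0.80, Krtap19-1 at -0.46 ± 0.35 and Krt36 at 0.51 ± 0.41 (SE), with limma's adjusted p between 0.602 and 0.760. The signs for Krtap19-1 and Krtap12-1 turned with the probe set, since the other probe sets differed by 0.25 and 0.36. No member separated the 24 h from the 6 h arrays, against 5.46% of all genes. These comparisons share arrays, so their medians are not independent of each other.

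Without the 3 high arrays, a choice made from the members' levels, the median within-group SD of the members was 0.43, against 0.31 over all genes. The median difference was then -0.28 at 24 h against vehicle (13 above 0, 34 below), -0.43 at 6 h against vehicle (13 above 0, 34 below) and -0.025 at 24 h against 6 h (23 above 0, 24 below). Unadjusted p lay under 0.05 for 7, 8 and 1 of the 47 members, against 7.43%, 12.7% and 8.2% of all genes, and limma's adjusted p was at least 0.659, 0.301 and 0.598. With 3 mice at 24 h, 3 at 6 h and 2 in vehicle, again no member was called. On these 8 arrays 6 to 14 of the 58 members lay at the floor.

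**Figure D5:**
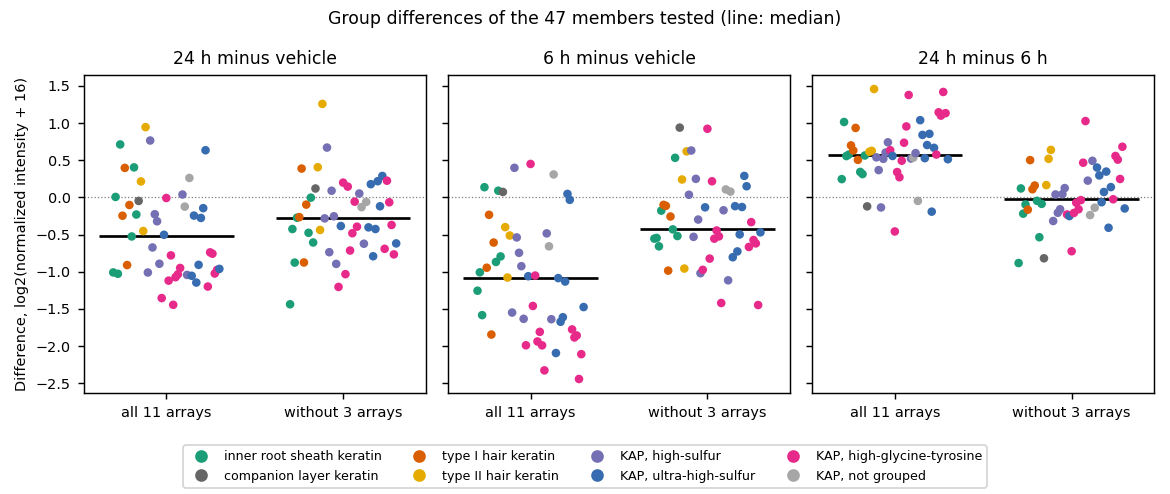
Fitted difference of each of the 47 tested members (points, coloured by class; line, median) for 24 h and then 6 h against vehicle and for 24 h against 6 h, on the log2(normalized intensity + 16) scale, with all 11 arrays and without 24 h replicate 2, 6 h replicate 5 and vehicle replicate 4. With all arrays the medians are -0.53, -1.08 and 0.58, and without the 3 arrays -0.28, -0.43 and -0.025.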

How the data were processed

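Total RNA of mouse skin was labelled with a 3' IVT kit and hybridised to Affymetrix arrays, per the labels' protocols. The authors deposited 1 table of linear intensity values for 45101 probe sets. The software and scaling behind them were not given in the sources used here. Of the probe sets 34958 had 1 annotated gene, 932 had several and 9211 were unnamed, and 34754 symbols were updated through Entrez identifiers.

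Intensities were quantile normalized, set to at least 0 and written as log2(intensity + 16). The brightest 1-gene probe set stood for a gene. Genes above the array's 40th percentile on at least 3 arrays were tested with limma 3.58.1 in R 4.3.3 (group means, two-sided, Benjamini-Hochberg, threshold 0.05), and the script was tested on simulated data. The number of arrays, 1 per mouse, limits the precision.

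The members and lists were chosen with earlier results of these data known. Genes were named by rule: the 4 of highest mean intensity per class, the 4 of smallest p per comparison, and the 2 dimmest tested and 2 brightest not tested. Krt28, Krt71, Krt73, Krtap5-1, Krtap31-1 and the single genes named from other lists were chosen after their values were seen, as was the grouping of KAPs by family number, since no protein sequences were used here. Deviations of same-numbered 24 h and vehicle arrays correlated (r = 0.135, 0.246 and 0.205 over genes). By the rule used here the replicate numbers thus counted as pairs for these groups, though the labels name nothing shared. Same-numbered 6 h and vehicle arrays gave r of -0.120 and -0.074, and 24 h and 6 h arrays -0.345, 0.169 and -0.064. The replicate block is given for these comparisons too, where r was mostly below 0. Alternatives were other normalizations, pseudocounts, filters, probe set rules and variance models, an actin covariate, a replicate block and leaving out arrays. Promoters came from RefSeq on GRCm38.p6.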

Additional observations from a re-analysis of the deposited data

Results flagged for a closer look

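Within groups of 4 mice, 8 levels of named members stood far from the others by Dixon's criterion, among 46 such groups examined. Chance sets apart about 5% of groups, a rate that does not apply to groups with arrays tied at the floor of 4.00. Most named members were chosen for a high mean intensity over all arrays, which a single high array can raise. The rate is therefore no measure for them either, and the levels set apart describe the pattern without testing it. At 24 h all 5 were on replicate 2: Krt26 at 10.05 (next array 4.70), Krt34 at 10.63 (4.76), Krt33a at 10.18 (4.00), Krt31 at 9.49 (5.46) and Krtap6-3 at 12.20 (5.38). At 6 h all 3 were on replicate 5: Krt26 at 6.36 (4.23), Krt34 at 7.22 (4.49) and Krt33a at 4.91 (4.00). In both Krt33a groups the other 3 arrays were all at the floor, so that any level above it is set apart whatever its size, which leaves 6 levels. The 3 vehicle mice were too few for this criterion. The genes are measured on the same arrays, so the 8 are not independent.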

How the results depend on the processing

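On the intensities as deposited 1 member was called at 6 h against vehicle (Krt83) and 0 in the other comparisons, and 0 members were called in each comparison under the other alternatives run. With the replicate number as a block, 0 members were called in each comparison, so the block changed no call. The median differences were then -0.89 at 24 h, -1.78 at 6 h and 0.87 for 24 h against 6 h. Over all genes, of which 0 were called in each comparison, array weights called 59 at 24 h, 2498 at 6 h and 423 for 24 h against 6 h, and the deposited intensities 6, 859 and 0, while the other alternatives called at most 23. Leaving out 1 array, the median difference ran from -1.45 to 0.73 at 24 h, from -1.79 to 0.13 at 6 h and from -0.42 to 1.06 for 24 h against 6 h, with 0 members called throughout.

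No single gene below was called in any setting given here, and the causes of the changed signs were not tested. As deposited, Krt32 at 24 h was -0.12, Krt81 at 24 h -0.36, Krt75 at 6 h -0.54 and Krt75 at 24 h against 6 h 0.0039. Krt75 at 6 h was -0.0015 after median scaling, and at 24 h 0.025 with cyclic loess, 0.036 with a pseudocount of 64 and 0.057 with the actin covariate. Krtap19-1 at 24 h against 6 h was 0.15 with a pseudocount of 64. Krt25 at 24 h against 6 h was -0.96 with array weights, and Krt81 at 24 h was -0.037 with the replicate block and -0.034 with the actin covariate. Without the 3 high arrays, an alternative chosen after seeing the data, Krt81 at 6 h was 0.24, Krt75 at 24 h 0.12 and Krt25 at 24 h against 6 h -0.88.

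Leaving out 1 array, the difference at 24 h against vehicle ran from -2.61 to 0.16 for Krt25, -2.46 to 0.68 for Krt34, -0.48 to 0.49 for Krt75, -0.31 to 0.93 for Krt81 and -2.75 to 1.41 for Krtap22-2. At 6 h against vehicle it ran from -0.28 to 0.61 for Krt75, -0.81 to 0.32 for Krt81 and -3.78 to 0.029 for Krtap22-2. At 24 h against 6 h it ran from -1.35 to 1.13 for Krt25, -0.62 to 1.66 for Krt34, -0.56 to 0.40 for Krt75 and -0.42 to 2.83 for Krtap22-2. Levels at the floor and the small groups limit all of these values.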

Other observations

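Probe sets annotated to several KAP genes, which were left out of the members, mostly had high levels on the same 3 arrays. The one shared by Krtap6-1 and 2 neighbouring genes had 12.12 on 24 h replicate 2, 9.52 on 6 h replicate 5 and 12.63 on vehicle replicate 4, with 4.91 to 6.22 on the other arrays. The one shared by Krtap2-4 and its neighbours had 9.55, 6.32 and 9.79, with 4.00 to 4.91 on the others. The dimmer of those shared by Krtap3-2 and Krtap3-3 had 7.02, 5.68 and 6.82, with 4.44 to 5.03 on the others. The one shared by Krtap4-13 and 2 other genes had 7.26, 5.97 and 5.56, with 4.00 to 5.005 on the others, and here 6 h replicate 5 lay above vehicle replicate 4. The one shared by Krtap9-1 and its neighbours differed: it had 6.64 on vehicle replicate 4 and was at the floor on 24 h replicate 2 and 6 h replicate 5.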
